A study of Mus musculus with 16 samples.

Results

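The interferon regulatory factors (IRFs) examined here were Irf1, Irf2, Irf3, Irf4, Irf5 and Irf8, taken by mouse symbol as the IRF genes other than Irf7 and Irf9. They are 6 of 46005 gene identifiers with a symbol. Irf7 and Irf9 are given by level alone. The family was picked with the group comparisons of these libraries already in view, so member differences between groups are described with no p-value. The libraries, 1 per mouse, hold total RNA of flow-sorted live thymocytes at the CD4+CD8+ double-positive stage. The 16 mice, on the NOD-AI4 background, were 6 to 7 weeks old. NOD is the nonobese diabetic strain, and every mouse, controls included, carries the AI4 T cell receptor transgene of an autoreactive CD8 T cell clone.

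The 6 controls were NOD-AI4 mice (3 males, 3 females). The transgenic group was 5 NOD-AI4-60A mice (3 males, 2 females), whose added transgene is Nfkbid. The 5 mice of the third group (4 males, 1 female) were labelled NOD-AI4-Nfkbid-/-. Nfkbid encodes IkBNS, a nuclear IkB protein that binds NF-kB subunits and modulates their target genes. The promoter of the transgene, its founder line and the knockout allele are not given in the sources used here.

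Nfkbid was 28.9, 31.9 and 36.9 CPM (counts scaled to a common library size) in the lowest, median and highest control library. It was 34.3, 28.8, 28.7, 28.2 and 37.8 CPM in the libraries labelled knockout. Transgenic replicates 1 to 5 had 309.6, 239, 115, 194 and 183 CPM. The gene was thus higher in every transgenic library (log2 fold change against control 2.67, SE 0.15, edgeR adjusted p = 9.79e-08) and not lower in the libraries labelled knockout (0.07, SE 0.15, edgeR adjusted p = 0.78), which are called knockout-labelled below. Which exons the knockout allele removes was not known, so counts over the whole gene need not check it.

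IRF proteins share an N-terminal DNA-binding domain that reads GAAA repeats, such as the interferon-stimulated response element. Irf1 activates and Irf2 mostly opposes transcription from shared sites. Irf4 and Irf8 are expressed mainly in lymphoid and myeloid cells and bind composite sites with partners such as Spi1, Spib or Batf with Jun proteins. Irf3 and Irf5 proteins wait in the cytoplasm and are activated by phosphorylation downstream of nucleic acid sensors and Toll-like receptors. In the thymus, Irf1 is known for its part in the development of CD8 T cells, Irf4 for its induction by antigen receptor signals, and Irf8 as a marker of dendritic cells.

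The stretches of 250 bases upstream of the RefSeq start site (GRCm38.p6, all on the plus strand) are printed for Irf1, Irf4 and Irf8, the genes higher in every transgenic than in every control library, and for Irf2, the member whose window holds a response element. Capitals mark matches to 4 motifs searched on both strands: the interferon-stimulated response element (GAAA, then NN, then GAAA), the gamma-activated STAT site TTCNNNGAA, the TATA box TATAAA and the NF-kB consensus. Windows run chr11:53769764-53770013 (Irf1), chr8:46739495-46739744 (Irf2), chr13:30748983-30749232 (Irf4) and chr8:120736108-120736357 (Irf8).
Irf1: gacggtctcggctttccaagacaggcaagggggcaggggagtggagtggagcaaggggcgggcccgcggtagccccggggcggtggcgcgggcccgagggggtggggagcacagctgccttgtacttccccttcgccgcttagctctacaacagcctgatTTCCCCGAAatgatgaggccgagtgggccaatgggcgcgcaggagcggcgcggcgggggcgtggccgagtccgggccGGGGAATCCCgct
Irf2: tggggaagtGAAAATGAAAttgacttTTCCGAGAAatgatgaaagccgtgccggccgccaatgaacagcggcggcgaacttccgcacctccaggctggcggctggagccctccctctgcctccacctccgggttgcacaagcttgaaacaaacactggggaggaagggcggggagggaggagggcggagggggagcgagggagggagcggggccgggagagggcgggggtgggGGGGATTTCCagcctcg
Irf4: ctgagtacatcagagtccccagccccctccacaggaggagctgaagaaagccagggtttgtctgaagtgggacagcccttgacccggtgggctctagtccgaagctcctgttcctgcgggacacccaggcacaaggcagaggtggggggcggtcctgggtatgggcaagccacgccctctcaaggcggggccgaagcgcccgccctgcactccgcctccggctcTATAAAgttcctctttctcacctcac
Irf8: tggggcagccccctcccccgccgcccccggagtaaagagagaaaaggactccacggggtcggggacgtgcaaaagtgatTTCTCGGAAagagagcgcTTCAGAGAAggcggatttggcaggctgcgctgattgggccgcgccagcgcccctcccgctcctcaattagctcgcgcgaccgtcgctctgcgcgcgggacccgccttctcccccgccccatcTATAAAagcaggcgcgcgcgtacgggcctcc

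The Irf1 window held the STAT site TTCCCCGAA, which began 90 bases before the start, and the NF-kB match GGGGAATCCC, 13 bases before it. The Irf2 window held the response element GAAAATGAAA, the STAT site TTCCGAGAA and the NF-kB match GGGGATTTCC, beginning 241, 224 and 17 bases before the start. Irf4 had a TATA box at 26 bases and no match to the other motifs, and Irf8 had a TATA box at 31 bases and the STAT sites TTCTCGGAA and TTCAGAGAA at 171 and 153 bases. The windows of Irf3 and Irf5 at their gene starts held no match. Among 32851 RefSeq promoter windows of the same 300 bases (250 before and 50 after a start), 3.44% held the response element, 8.3% the STAT site, 8.46% the NF-kB consensus and 13.62% the TATA box. No motif overlapped another in these windows. A match describes letters, not binding.

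All genes lie on the plus strand of GRCm38: Irf1 on chromosome 11 (53770014 to 53778374), Irf2 on chromosome 8 (46739732 to 46847458), Irf3 on chromosome 7 (44997648 to 45002848), Irf4 on chromosome 13 (30749226 to 30766976), Irf5 on chromosome 6 (29526625 to 29541871) and Irf8 on chromosome 8 (120736358 to 120756694). Some share bases with other gene models. Irf3 shares 1065 bases with Bcl2l12 and Irf5 shares 1045 bases with Tnpo3, and Gm17334 lies within Irf1, each on the opposite strand. Gm45479, Gm31172 and Gm45481, of 1723, 433 and 877 bases, lie within Irf2 on the opposite strand, and their levels are not reported here. Irf8 lies inside Gm20388, a model of 4434882 bases on the same strand. Libraries were stranded, but the use of strand in counting, not given in the sources used here, leaves reads in shared bases uncertain.

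Per transcript length (TPM, the deposited transcript abundance), the members fell into 3 tiers in double-positive thymocytes. In the controls Irf3 averaged 147 TPM, Irf1 76.3 and Irf2 45.5, each without overlap with the next. Irf8 followed at 5.99 TPM, and Irf5 at 1.26 and Irf4 at 1.25 TPM overlapped. Irf3 lay above 95.5% of all identifiers detected in the controls, and Irf4 above 47.8%. The knockout-labelled libraries kept this order, with Irf3 at 127, Irf1 at 78.1, Irf2 at 40.3, Irf8 at 9.75, Irf5 at 1.52 and Irf4 at 0.907 TPM, and Irf5 and Irf4 again overlapped. In the transgenic libraries Irf3 (121 TPM) and Irf1 (116 TPM) overlapped. Irf2 followed at 46.4, Irf8 at 13.6 and then Irf4 at 3.30 TPM, which lay above Irf5 (1.55 TPM) without overlap.

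**Figure D1:**
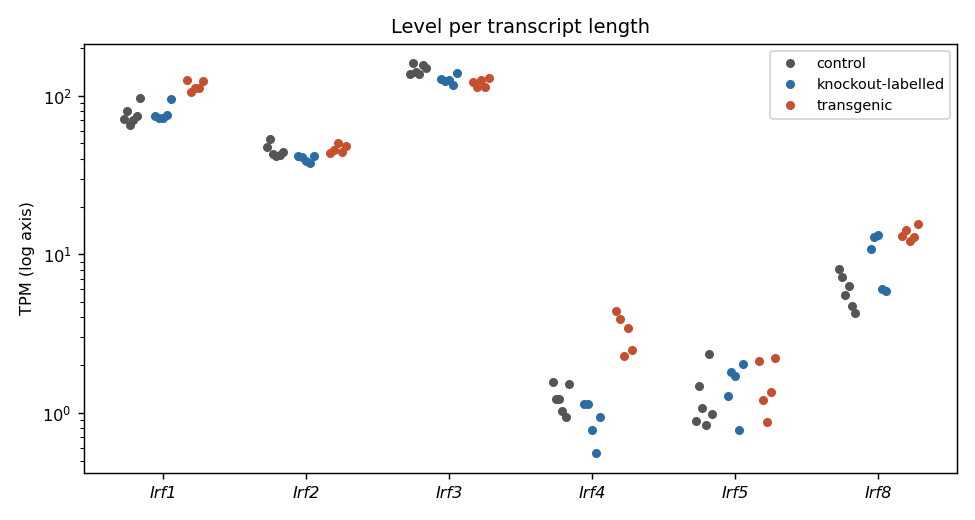
TPM of the 6 IRF genes on a log axis, 1 point per library (6 control, 5 knockout-labelled, 5 transgenic). Irf3, Irf1 and Irf2 lie between 37.8 and 159.7 TPM, and Irf4 lies above Irf5 without overlap in the transgenic group.

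Irf7 and Irf9, which act in the response to interferon, averaged 26.1 ± 26.2 and 58.4 ± 32.8 CPM in controls (SD, n = 6). They averaged 18.1 ± 3.86 and 42.0 ± 6.78 CPM in knockout-labelled libraries (SD, n = 5), and 74.6 ± 59.9 and 108 ± 57.5 CPM in transgenic libraries (SD, n = 5).

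Library totals lay between 17955743 and 35637813 estimated counts, and all 6 members passed the filter on low counts. Cd4, Cd8a and Rag1, which define double-positive thymocytes, averaged 995, 2108 and 966 CPM in the controls. The summed CPM of 12 double-positive markers spanned 6949 to 9761 for controls, 7098 to 8685 for knockout-labelled mice and 6972 to 7738 for transgenic mice. Libraries stood apart in other ways. The sum of 10 interferon-response transcripts reached 307 CPM for control replicate 2, and 721 and 358 CPM for transgenic replicates 3 and 5. The other controls had 19.0 to 32.6 CPM and knockout-labelled libraries 22.6 to 47.8 CPM. Transgenic replicates 1, 2 and 4 had 111, 55.9 and 54.8 CPM. The sum of 12 dendritic cell markers, which include MHC class II genes, was 69.6, 69.9 and 84.5 CPM in knockout-labelled replicates 1, 2 and 3, against 7.05 and 7.53 CPM in replicates 4 and 5. All controls carry mouse identifiers of one series and all other mice of another, so that the group and the identifier series cannot be told apart in either comparison with controls. In the controls, males were also the more deeply sequenced libraries.

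In the transgenic libraries 4 of the 6 members were called higher than in controls and 1 lower, at an edgeR adjusted p under 0.05. The background was high: 38.6% of the 14933 genes tested were called (23.0% higher, 15.6% lower). The members' median log2 fold change was 0.74, against 0.03 for all genes tested. Groups did not overlap in CPM for 4 members, Irf1, Irf3, Irf4 and Irf8, nor did they for 21.6% of all genes. Between knockout-labelled and control libraries 2 members were called higher (Irf5, Irf8) and 1 lower (Irf3), beside 26.4% of all genes (16.4% higher, 10% lower). Every member's groups overlapped, while those of 14.1% of all genes did not. These 3 calls came down to 0 without the class II-high libraries (control replicate 1 and knockout-labelled replicates 1 to 3), and to 1 without the interferon-high libraries (control replicate 2 and transgenic replicates 3 and 5). The term class II-high covers control and knockout-labelled libraries alone: all 5 transgenic libraries, at 47.8 to 82.1 CPM of dendritic cell markers, were kept. Between transgenic and knockout-labelled libraries, within 1 identifier series, 2 members (Irf1, Irf4) were called higher and 0 lower, beside 1.17% of all genes (1.07% higher, 0.0938% lower). DESeq2 called 3 members there. Groups did not overlap for Irf1, Irf2 and Irf4, nor did they for 3.09% of all genes. The comparisons share libraries pairwise. Because the rule for the members had these contrasts in view, the counts are given as a description.

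**Figure D2:**
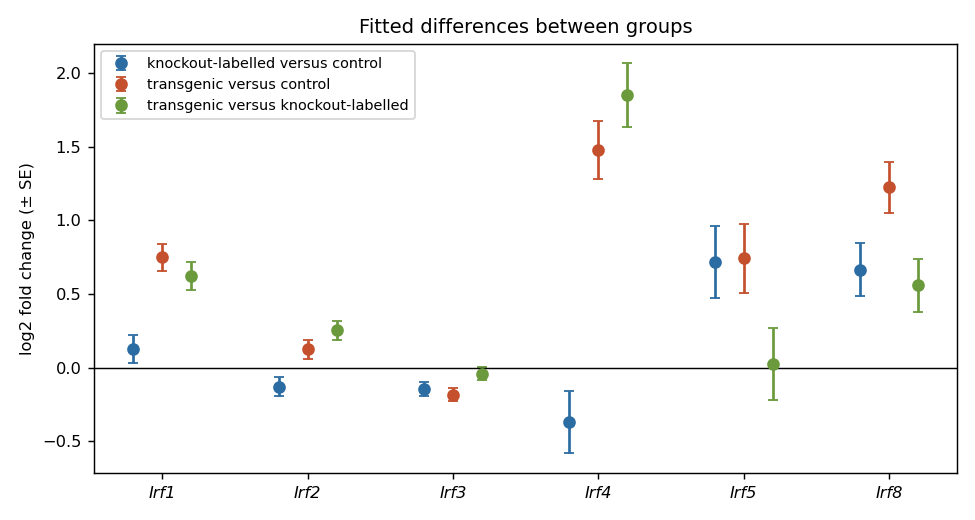
Fitted log2 fold change (± SE, edgeR, group and sex in the model, 16 libraries) of each IRF gene in the 3 group comparisons, with 0 marked by the line. Irf4 has the largest differences of the 6 genes, 1.48 against control and 1.85 against knockout-labelled libraries, and Irf3 lies below 0 in each comparison.

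Irf1, the interferon- and STAT-inducible activator, was 64.1, 72.9 and 102 CPM in the lowest, median and highest control library. Knockout-labelled replicates 1 to 5 had 86.2, 75.1, 72.8, 87.5 and 89.1 CPM. Transgenic replicates 1 to 5 had 138, 124, 126, 121 and 134 CPM. Every transgenic library thus lay above every other library, and the knockout-labelled ones lay inside the control range. The means were 77.2 ± 13.3 (SD, n = 6), 82.1 ± 7.57 (SD, n = 5) and 128 ± 7.04 CPM (SD, n = 5). The fitted log2 fold change was 0.75 (SE 0.09) against control, a 1.68-fold difference, and 0.62 (SE 0.10) against knockout-labelled libraries, and both were called. The knockout-labelled difference from control was 0.13 (SE 0.09), which was not called. The call against knockout-labelled libraries was lost without the interferon-high libraries (0.54) and without the class II-high libraries (0.49).

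Control replicate 2, high in interferon-response transcripts, had 79.3 CPM of Irf1, and the highest control value belonged to replicate 6, whose sum of those transcripts was 19.0 CPM. Transgenic replicates 3 and 5, high in those transcripts, lay inside the range of the other transgenic libraries. The summed CPM of 10 mature single-positive thymocyte markers moved with Irf1, at 560 to 822 for controls, 674 to 808 for knockout-labelled mice and 941 to 1402 for transgenic mice. In transgenic against control 7 of the 10 were called higher, and none of the 10 was at 0 in every library of a group. Their part in the Irf1 difference was not tested. In bulk RNA, fewer cells of a type and less RNA per cell cannot be told apart. Gm17334, the antisense model within Irf1, averaged 1.12 to 1.99 CPM in the 3 groups.

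Irf2, the factor that mostly opposes Irf1 at shared sites, differed little. It was 59.6, 66.3 and 76.4 CPM in the lowest, median and highest control library. Knockout-labelled replicates 1 to 5 had 66.4, 60.9, 58.1, 60.1 and 62.1 CPM, and transgenic replicates 1 to 5 had 70.5, 72.9, 79.5, 67.2 and 74.1 CPM. Transgenic libraries lay above every knockout-labelled library and overlapped the controls. The log2 fold change was 0.12 (SE 0.06) against control, -0.13 (SE 0.06) for knockout-labelled against control and 0.25 (SE 0.07) for transgenic against knockout-labelled libraries, and none was called. The last was called with DESeq2 and without knockout-labelled replicate 1, and the knockout-labelled difference from control was called in males alone, at -0.23.

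The 3 interferon-high libraries were the highest of their groups for Irf2: control replicate 2 at 76.4 CPM and transgenic replicates 3 and 5 at 79.5 and 74.1 CPM. Deviations from the group means of Irf2 correlated with those of the interferon-response sum (r = 0.70) and of the mature single-positive sum (r = 0.86) over the 16 libraries. These are descriptions over libraries that share groups, depth and sorting. The part of those transcripts in the Irf2 levels was not tested.

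**Figure D3:**
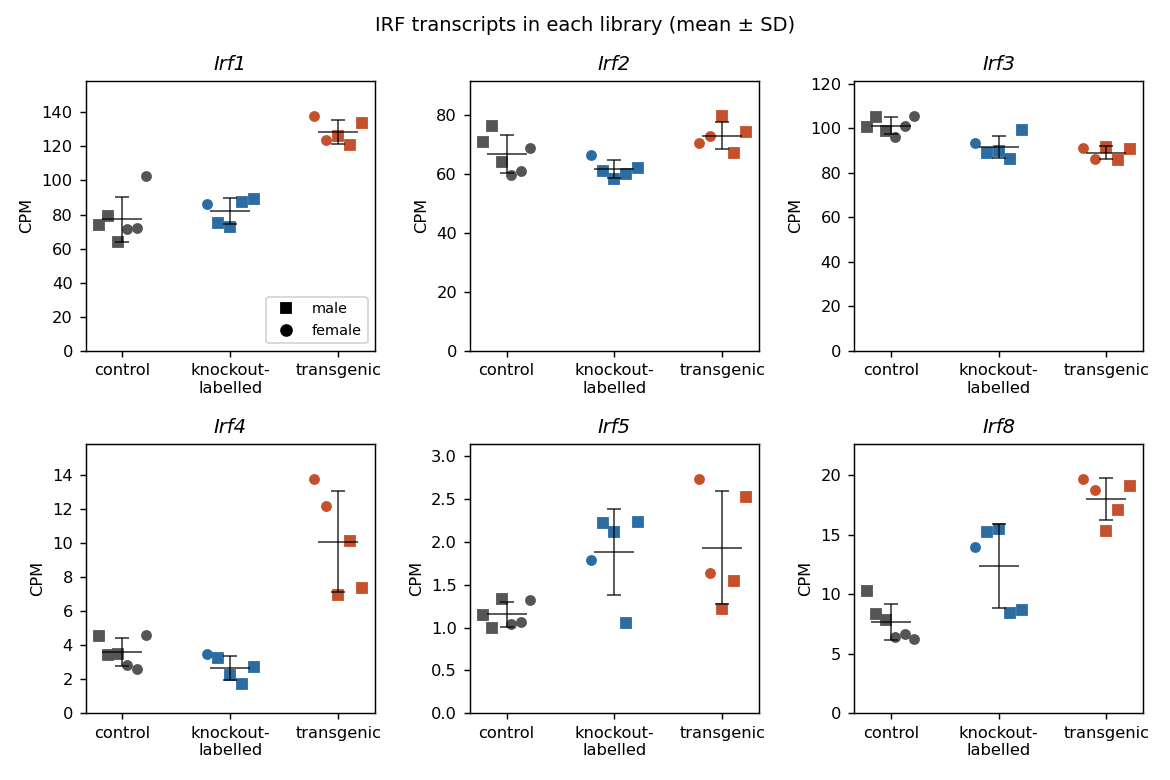
CPM of each IRF gene in each library, with squares for males, circles for females, and bars for the group mean ± SD (6 control, 5 knockout-labelled, 5 transgenic libraries). Transgenic libraries lie above all others for Irf1 and Irf4, while knockout-labelled libraries split for Irf8 into 3 between 14.0 and 15.5 CPM and 2 at 8.41 and 8.71 CPM.

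Irf4, the antigen receptor-induced factor, was 2.62, 3.44 and 4.58 CPM in the lowest, median and highest control library. Knockout-labelled replicates 1 to 5 had 3.48, 3.235, 2.25, 1.70 and 2.69 CPM. Transgenic replicates 1 to 5 had 13.8, 12.2, 6.95, 10.1 and 7.38 CPM. The lowest transgenic library thus exceeded the highest of the other 11, and the transgenic group spread most. The values rested on 49 to 312 estimated counts per library. The fitted log2 fold change was 1.48 (SE 0.20) against control and 1.85 (SE 0.22) against knockout-labelled libraries, or 2.78-fold and 3.60-fold. Both were called in the main test and in all 27 alternatives, where they ranged from 1.07 to 1.67 and from 1.71 to 2.10. The knockout-labelled difference from control was -0.37 (SE 0.21), not called.

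The 5 transgenic libraries stood in the same order for Irf4 and for Nfkbid, with replicates 1 and 2, the females, highest for both. Over all 16 libraries r between Irf4 and Nfkbid was 0.93, and 0.58 for deviations from the group means. Markers of cells that express Irf4 strongly were also higher in the transgenic group. The sum of 10 B cell markers spanned 4.77 to 7.35 CPM for controls, 3.89 to 5.07 for knockout-labelled mice and 8.33 to 39.0 for transgenic mice, with the highest in transgenic replicate 1. Against control 7 of 8 tested B cell markers were called higher. The sum of 8 antibody-secreting cell markers was 56.2 to 68.2, 59.7 to 98.9 and 97.2 to 178 CPM in the same groups, and 4 of 6 tested were called higher. The 2 not called were Xbp1 and Sdc1. Xbp1 averaged 55.1, 58.2 and 59.6 CPM in control, knockout-labelled and transgenic libraries, and Igkc 0.73, 0.80 and 59.9 CPM. Within the transgenic group that second sum went the other way from Irf4: it was 97.2 and 116 CPM in replicates 1 and 2 and 151 to 178 CPM in replicates 3 to 5. Over all 16 libraries r with Irf4 was 0.90 for the B cell sum and 0.63 for the antibody-secreting cell sum. For deviations from the group means the values were 0.60 for the B cell sum and -0.76 for the antibody-secreting cell sum. None of these markers was at 0 in every library of a group, although 8 of the 10 B cell markers averaged under 1 CPM in the controls. The part of such cells in the Irf4 difference was not tested.

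Irf8, the factor of dendritic cells, macrophages and B cells, was 6.29, 7.28 and 10.3 CPM in the lowest, median and highest control library. Knockout-labelled replicates 1 to 5 had 14.0, 15.3, 15.5, 8.41 and 8.71 CPM. Transgenic replicates 1 to 5 had 19.7, 18.8, 15.3, 17.1 and 19.1 CPM. Knockout-labelled libraries fell apart into 3 high ones, above every control, and 2 inside the control range. Transgenic libraries lay above every control and overlapped the knockout-labelled ones by transgenic replicate 3. The fitted log2 fold change was 1.22 (SE 0.17) for transgenic and 0.67 (SE 0.18) for knockout-labelled against control, or 2.34-fold and 1.59-fold, both called. Without knockout-labelled replicate 1 the second was 0.56 and not called. Transgenic against knockout-labelled was 0.56 (SE 0.18), not called.

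The split of Irf8 followed the dendritic cell markers. Their sum was 4.75 to 23.0 CPM in control, with the highest in replicate 1, which was also the highest control for Irf8. It was 47.8 to 82.1 CPM in transgenic libraries. Against control 8 of 10 tested dendritic cell markers were called higher in transgenic and 3 in knockout-labelled libraries. The 3 were the MHC class II transcripts H2-Ab1, H2-Aa and Cd74. They made up most of the sum in transgenic libraries, at means of 11.6, 13.9 and 27.1 CPM. Xcr1 and Zbtb46 were called in neither comparison, and Clec9a and Clec10a were not tested. The sum of 12 macrophage and monocyte markers was 15.8 to 24.0, 13.0 to 38.1 and 40.4 to 45.8 CPM in control, knockout-labelled and transgenic libraries, with 8 of 10 tested called higher in transgenic against control and 1 in knockout-labelled against control. None of either list was at 0 in every library of a group. Deviations of Irf8 from the group means had r = 0.92 with the dendritic cell sum and 0.84 with the macrophage sum over 16 libraries. Without control replicate 1 and knockout-labelled replicates 1 to 3, Irf8 in knockout-labelled against control was 0.22 and no longer called. Transgenic against knockout-labelled was then 1.10 and called, in a setting that compared all 5 transgenic libraries with the 2 knockout-labelled libraries low in dendritic cell markers. In that setting 8 dendritic cell markers were called higher in transgenic against knockout-labelled libraries, against 0 with all libraries (edgeR; 2 at an unadjusted p under 0.05, and 0 called by DESeq2). Gm20388, the model that spans Irf8 on the same strand, averaged 99.8, 104 and 111 CPM in control, knockout-labelled and transgenic libraries and was not called in any group comparison. The part of those cells in the Irf8 levels was not tested.

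**Figure D4:**
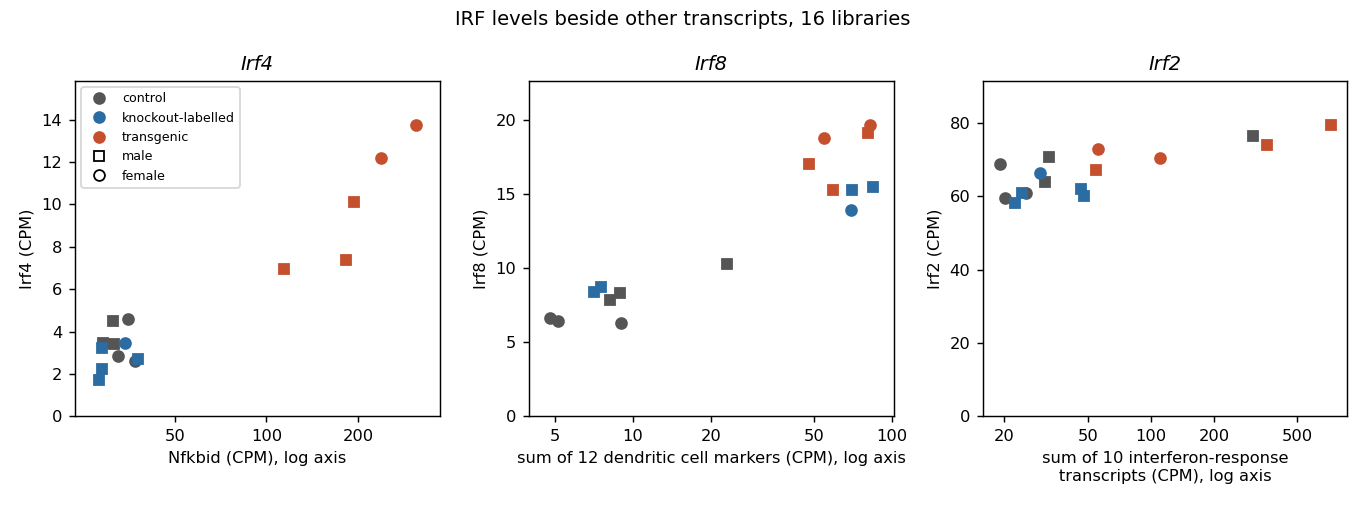
CPM of Irf4 against Nfkbid, of Irf8 against the summed CPM of 12 dendritic cell markers, and of Irf2 against the sum of 10 interferon-response transcripts, each on a log horizontal axis with 1 point per library. Knockout-labelled replicates 4 and 5, at 7.05 and 7.53 CPM of dendritic cell markers, lie among the controls for Irf8, and the 3 libraries above 300 CPM of interferon-response transcripts are the highest of their groups for Irf2.

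Irf3, the member activated by the kinase Tbk1 after nucleic acid sensing, had the smallest range over the 16 libraries of the 6 members, 1.23-fold from lowest to highest. It was 95.9, 101 and 105 CPM in the lowest, median and highest control library. Knockout-labelled replicates 1 to 5 had 93.5, 89.0, 89.9, 86.2 and 99.4 CPM, and transgenic replicates 1 to 5 had 91.2, 86.0, 91.5, 85.7 and 90.8 CPM. Every transgenic library lay below every control, and knockout-labelled replicate 5 reached into the control range. The coefficient of variation was 3.64%, 5.54% and 3.28% in control, knockout-labelled and transgenic groups. The fitted log2 fold change was -0.19 (SE 0.04) in transgenic and -0.14 (SE 0.05) in knockout-labelled libraries against control, both called lower, and -0.04 (SE 0.05) between them. The knockout-labelled call was lost without the interferon-high and without the class II-high libraries (-0.14 in each), with no filter (-0.15) and in males alone (-0.16). Bcl2l12, which shares bases with Irf3 on the other strand, was not called in any of these comparisons (0.05, 0.12 and 0.07 in knockout-labelled against control, transgenic against control and transgenic against knockout-labelled).

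Irf5, a Toll-like receptor-activated factor of macrophages and B cells, was near the limit of these depths, with 19 to 55.9 estimated counts per library. It was 0.999, 1.11 and 1.34 CPM in the lowest, median and highest control library. Knockout-labelled replicates 1 to 5 had 1.78, 2.21, 2.12, 1.05 and 2.23 CPM, and transgenic replicates 1 to 5 had 2.73, 1.64, 1.22, 1.54 and 2.52 CPM. In each of these groups 4 of 5 libraries lay above the highest control. The log2 fold change was 0.72 (SE 0.24) in knockout-labelled and 0.74 (SE 0.24) in transgenic libraries against control, both called, and 0.03 (SE 0.24) between them. The first call held in 13 of 27 alternatives and was lost on leaving out 1 of control replicates 1, 2, 4 and 5, knockout-labelled replicates 1, 2, 3 and 5 or transgenic replicate 4 (0.61 to 0.77). The second held in 21 of 27 and was lost without control replicate 2 (0.67) and without transgenic replicate 1 or 5 (0.57 each). Tnpo3, which shares bases with Irf5 on the other strand, averaged 127, 140 and 139 CPM in control, knockout-labelled and transgenic libraries. It was itself called higher against control in knockout-labelled (0.13, SE 0.04) and transgenic libraries (0.12, SE 0.04). Whether its reads entered the Irf5 counts was not tested. TPM followed CPM loosely here: control replicate 5 had 1.07 CPM and, at 2.33 TPM, the highest TPM of Irf5 in any library. Deviations of Irf5 from the group means had r = 0.42 with the dendritic cell sum and 0.13 with the macrophage sum given for Irf8, and the part of those cells was not tested.

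Differences between males and females were not used to pick the members and could be tested. No member was called in the fit over all 16 libraries, with edgeR (0 of 6, 0 at an unadjusted p under 0.05) or with DESeq2 (0 of 6), beside 0.141% of all genes. The largest was Irf4, at -0.30 (SE 0.18, male minus female, adjusted p = 0.56), and Irf3 was at 0.00 (SE 0.04, adjusted p = 1). The difference between transgenic and control libraries was also compared between the sexes, where 0.0278% of 14385 genes were called and no member was. Irf8 came nearest, with a transgenic difference smaller in males by 0.60 on the log2 scale (male minus female -0.60, SE 0.18, edgeR adjusted p = 0.228). Female libraries were 6.29 to 6.68 CPM in control and 18.8 to 19.7 in transgenic mice, and male libraries 7.89 to 10.3 and 15.3 to 19.1 CPM. For Irf4 the term was -0.84 (SE 0.31, edgeR adjusted p = 0.294), with transgenic females at 12.2 and 13.8 CPM and transgenic males at 6.95 to 10.1 CPM. These 2 of the 6 members had an unadjusted p under 0.05. Nfkbid was 239 and 309.6 CPM in the transgenic females and 115 to 194 CPM in the males, and its own term was -0.54 (SE 0.27, adjusted p = 0.41).

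Genes whose promoters IRF proteins are known to bind were, as a list of 16 tested, higher in the transgenic libraries. Against control 13 were called higher and none lower (median log2 fold change 1.27, against 0.03 for all genes), beside 23.0% of all genes called higher, and against knockout-labelled libraries 10 were higher and none lower (median 1.09), beside 1.07% of all genes called higher. At an unadjusted p under 0.05, and with DESeq2, none of the 16 was lower either. Without the interferon-high libraries 13 were called higher against control and 8 against knockout-labelled libraries. Without the class II-high libraries 12 were called higher against control and 7 against knockout-labelled libraries. Psmb9, a subunit of the immunoproteasome, rose by 1.16 (SE 0.07, adjusted p = 7.67e-08) against control and by 0.82 (SE 0.08, adjusted p = 1.33e-05) against knockout-labelled libraries. Psmb8, another subunit, rose by 0.53 (SE 0.05, adjusted p = 8.38e-06) against control.

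Between knockout-labelled and control libraries 4 of the 16 were higher, Psmb9 among them (0.34, SE 0.07, adjusted p = 0.00384), with none lower and a median of -0.07. Without the class II-high libraries these 4 calls came down to 0. Psmb8 and Psmb9 were selected by the smallest p in a list put together with earlier results of these data known.

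Partner factors that share DNA sites or complexes with IRF proteins were mixed. Of 17 tested, 5 were called higher and 1 lower in transgenic against control libraries, 2 lower in knockout-labelled against control and 2 higher in transgenic against knockout-labelled. The shares over all genes were 23.0% higher and 15.6% lower, 10% lower, and 1.07% higher in the same order. Without the interferon-high libraries the 5 came down to 2. Spib, the Ets-family partner of Irf4 and Irf8 in B cells and plasmacytoid dendritic cells, rose by 2.74 against control (SE 0.41, adjusted p = 1.27e-04). Its level was low, at means of 0.27 CPM in control and 1.89 CPM in transgenic libraries. Junb, an AP-1 subunit that pairs with Batf, fell by 1.43 in transgenic (SE 0.22, adjusted p = 3.24e-04) and by 1.39 in knockout-labelled libraries (SE 0.23, adjusted p = 0.00123). Without the class II-high libraries the knockout-labelled call of Junb was lost, as were all lower calls of the list in that comparison.

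Sensors and kinases that act upstream of Irf3 and Irf5 were mostly not called. Of 18 tested, 5 were called higher and 2 lower in transgenic against control libraries, 2 lower in knockout-labelled against control and 1 higher in transgenic against knockout-labelled, beside the same shares over all genes. With DESeq2 the 2 lower in knockout-labelled against control became 5, and the 1 higher in transgenic against knockout-labelled became 4. Tmem173, the adaptor STING, rose by 0.51 (SE 0.14, adjusted p = 0.00843) against control. Zbp1, an interferon-induced nucleic acid sensor, rose by 0.99 against control (SE 0.26, adjusted p = 0.0104) and by 1.37 against knockout-labelled libraries (SE 0.28, adjusted p = 0.0313). Azi2, a Tbk1 adaptor, fell by 0.21 in knockout-labelled libraries (SE 0.05, adjusted p = 0.00431), a call lost without the class II-high libraries.

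Interferon receptors, their kinases and feedback inhibitors had 3 of 12 called higher in transgenic and 1 lower in knockout-labelled libraries against control, where 23.0% and 10% of all genes were. Socs3, an inhibitor of cytokine receptor signalling, rose by 0.88 (SE 0.15, adjusted p = 3.19e-04) and Ifnar2, a type I interferon receptor chain, by 0.29 (SE 0.08, adjusted p = 0.00622) against control. Jak2 fell by 0.16 in knockout-labelled libraries (SE 0.06, adjusted p = 0.0497), a call lost without the class II-high and without the interferon-high libraries. In transgenic against knockout-labelled libraries edgeR called 0 of 12, with 3 at an unadjusted p under 0.05 and 1 called by DESeq2, and Usp18, which restrains the type I receptor, had the smallest p (2.41, SE 0.74, adjusted p = 0.196).

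The interferon-response transcripts were mostly not called by edgeR. Of 9 tested, 2 were higher in transgenic against control, beside 23.0% of all genes, and 9 were once the interferon-high libraries were left out. With all libraries 8 were higher at an unadjusted p under 0.05, and DESeq2 called 5 higher. Their median log2 fold change was 1.79, against 0.03 for all genes. Oas1a, which senses double-stranded RNA, rose by 3.09 (SE 0.85, adjusted p = 0.0126) and Rtp4, an interferon-induced transporter protein, by 1.93 (SE 0.66, adjusted p = 0.035). Oas1a averaged 1.69 ± 3.06 CPM in control libraries (SD, n = 6). It averaged 0.44 ± 0.16 CPM in knockout-labelled (SD, n = 5) and 17.1 ± 22.5 CPM in transgenic libraries (SD, n = 5). Between transgenic and knockout-labelled libraries Oas1a was the 1 called by edgeR (5.46, SE 1.04, adjusted p = 0.0198), 9 had an unadjusted p under 0.05 and DESeq2 called 9. Between knockout-labelled and control libraries none was called by edgeR, at an unadjusted p under 0.05 or by DESeq2, and Oas1a stood at -2.38 (SE 1.11, adjusted p = 0.132).

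**Figure D5:**
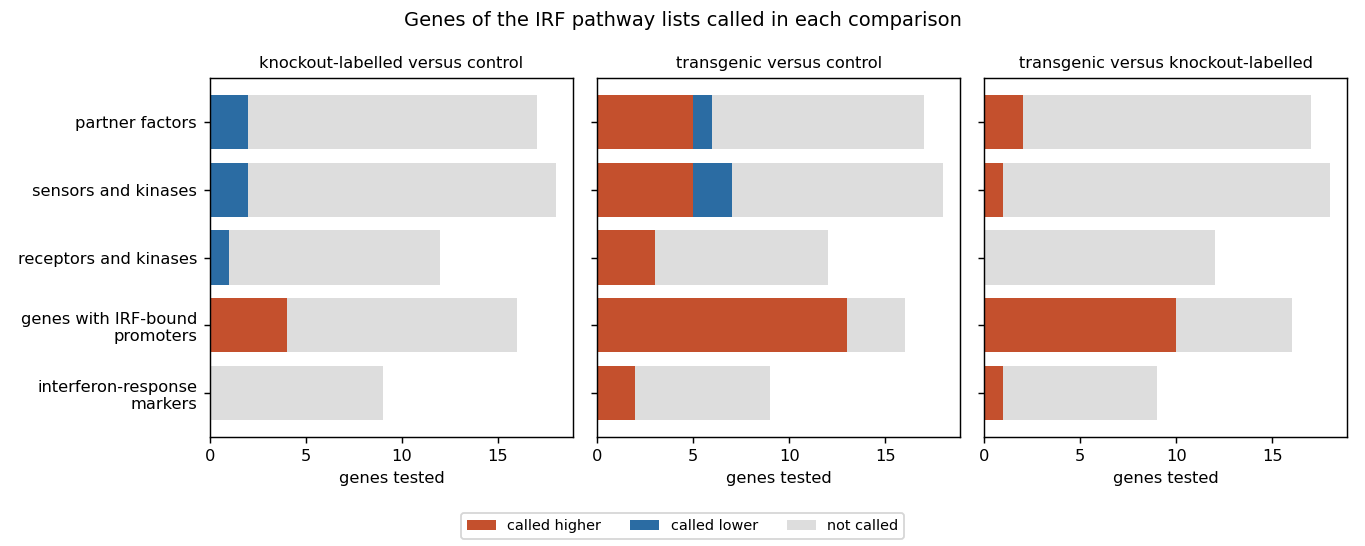
Number of genes called higher, called lower and not called (edgeR adjusted p under 0.05) in 5 lists of genes that work with IRF proteins, in the 3 group comparisons. The list of genes with IRF-bound promoters has 13 of 16 called higher in transgenic against control and 10 of 16 in transgenic against knockout-labelled libraries.

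The genes whose levels followed each member most closely were sought among the 10076 genes that averaged 5 CPM or more, by Pearson r of log2 CPM over the 16 libraries, as a description. For Irf1 they were Psmb8, Serpinb9 (a granzyme B inhibitor) and Inf2 (an actin-regulating formin), each at r = 0.94. For Irf2 they were Gm8995 (0.92), Gm4070 (0.90) and Dtx3l (0.88), a ubiquitin ligase. For Irf3 they were Kdm5b (0.95), a histone demethylase, Ldb1 (0.95), an adaptor of LIM-domain factors, and Stx1a (0.94), a membrane-fusion protein. Irf4 stood nearest to Hcst, the NKG2D adaptor DAP10, Reep5, an endoplasmic reticulum-shaping protein, and Nfkbid, each at 0.93. Irf5 had the loosest neighbours, among them Cdca4 (0.88) and Mapk3 (0.86). For Irf8 they were Cd74 (0.95), the MHC class II invariant chain and itself 1 of the dendritic cell markers, Lamp1 (0.94), a lysosomal membrane protein, and Tmem256 (0.94). The libraries share 3 groups, so part of each r is the group difference: within groups r was 0.73 for Psmb8 with Irf1, 0.92 for Cd74 with Irf8 and 0.92 for Reep5 with Irf4.

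Among the members, Irf1 and Irf4 had r = 0.82 over the libraries and 0.24 within groups, and Irf5 and Irf8 had 0.69 and 0.44. The sign differed between the whole set and the within-group values for 4 pairs: Irf1 and Irf8 (0.65 and -0.40), Irf1 and Irf3 (-0.45 and 0.56), Irf3 and Irf5 (-0.39 and 0.40) and Irf3 and Irf4 (-0.33 and 0.23).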

How the data were processed

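Total RNA of sorted CD4+CD8+ thymocytes from 16 mice was made into stranded libraries, per the labels' protocols. Bowtie 1.0.0, SAMtools 0.1.18, edgeR 3.24.3 and GRCm38 (mm10) are named in the submitters' processing notes, which leave the counting program not given in the sources used here. Per the file headers, each deposited file gives an expected (estimated) count and a TPM value per gene, and 58.7% of the estimated counts above 0 were whole within 1e-06. TPM values, deposited by the authors, ordered levels between genes and entered no test. The 512 of 46517 identifiers without a symbol held 0.171% of the counts.

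Estimated counts were rounded and fitted with edgeR 4.0.16 (R 4.3.3, limma 3.58.1): expression filter by group, TMM scaling, robust quasi-likelihood fit on group plus sex over 6 control, 5 knockout and 5 transgenic libraries, 12 residual degrees of freedom. Two-sided p-values were adjusted by Benjamini-Hochberg over 14933 genes, with a threshold of 0.05, and "called" means past it. The model of the transgenic effect by sex used control and transgenic libraries (14385 genes, 7 residual degrees of freedom). Each SE of a log2 fold change was derived from the edgeR test, as the absolute log2 fold change over the square root of its F statistic. CPM use TMM-scaled library sizes, and r uses log2 CPM with a prior count of 2. The fit was tested on simulated data. Libraries of a group differed by more than sampling noise (chi-square per degree of freedom 4.42 to 77.7), and each came from its own mouse, by the identifiers.

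The members, the 5 pathway lists and the 8 marker lists were chosen with earlier results of these data known. Genes named were the members, Nfkbid, Irf7 and Irf9 by level, the 2 genes of each pathway list with the smallest p in transgenic against control and the 1 with the smallest p in each other group comparison, and the 3 genes most like each member; genes sharing bases with a member, and the markers of the sorted cells, are given beside them. Some genes that this rule takes are not reported here. Promoters came from RefSeq (GRCm38.p6), with windows for all 6 members. Alternatives were DESeq2 1.42.0, other scalings, filters, covariates and sample sets, a replicate block and leaving out each library.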

Additional observations from a re-analysis of the deposited data

How the results depend on the processing

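Over 27 alternatives the members' log2 fold changes kept their sign in 162 of 162 values against control for knockout-labelled and again for transgenic libraries, and in 157 of 162 between those groups, where the exceptions were Irf5. Members called in knockout-labelled against control went from 3 to 1 with no filter, in males alone (where the 1 was Irf2, not among the 3) and without the interferon-high libraries, to 0 without the class II-high ones, and ranged from 1 to 3 leaving out each library. In transgenic against knockout-labelled they went from 2 to 1 without the interferon-high libraries. Pathway genes called higher in knockout-labelled against control went from 4 to 0 without the class II-high libraries (1 to 5 leaving out each). Those called lower went from 5 to 8 with DESeq2, RLE size factors, the stricter filter or the replicate block, to 3 with no filter or without the interferon-high libraries, and to 0 without the class II-high ones (2 to 8 leaving out each). In transgenic against control those called lower went from 3 to 5 with DESeq2, RLE size factors or the stricter filter (2 to 5 leaving out each). In transgenic against knockout-labelled those called higher went from 14 to 26 with DESeq2 and to 6 in males alone. Genes called over the whole table in knockout-labelled against control went from 3942 to 2289 and 1438 without the interferon-high and the class II-high libraries, in transgenic against control from 5765 to 3160 in males alone, and in transgenic against knockout-labelled from 174 to 342 with DESeq2, 278 with no filter and 106 in males alone. Genes called between the sexes went from 21 to 110 with DESeq2, 12 with the replicate block, 11 without the class II-high libraries and 50 without transgenic replicate 2. The cause of these changes was not tested. In the smaller sample sets, fewer libraries and the traits of those left out cannot be told apart.

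The labels give no litter, day or batch for a replicate number. Same-numbered libraries, some of unlike sex, had r from -0.09 to 0.27 in their deviations, and 7 of 30 matched best with their own number. These values describe likeness and do not settle whether mice of a number shared a litter or day. With the replicate block, 2 members in knockout-labelled against control, 5 in transgenic against control and 2 between those groups were called. Depth limits Irf5 most, at 19 to 55.9 estimated counts.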

Other observations

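Irf7 and Irf9 were highest in the 3 interferon-high libraries. Control replicate 2 had 79.4 CPM of Irf7 and 125 CPM of Irf9, where the other controls had at most 17.4 and 48.9 CPM. Transgenic replicates 3 and 5 had 167 and 102 CPM of Irf7 and 193 and 141 CPM of Irf9, and the other transgenic libraries 28.0 to 46.1 and 61.6 to 78.4 CPM. Irf3 in those 3 libraries was 105, 91.5 and 90.8 CPM, where its groups spanned 95.9 to 105 and 85.7 to 91.5 CPM.

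Sums of further marker lists describe transcripts and do not settle which cells the sorted libraries held. The sum of 10 NK, innate lymphoid and gamma-delta cell markers spanned 534 to 726 CPM for controls, 708 to 764 for knockout-labelled mice and 835 to 954 for transgenic mice. Most of it was Trdc (means 479, 516 and 634 CPM in the same order) and Gzma (103, 196 and 231 CPM). Against control 4 and 5 of 7 tested were called higher in knockout-labelled and transgenic libraries. Id2 stood at -0.25 in transgenic against control, not called, and Klrd1, Ncr1 and Zbtb16 were not tested. The sum of 8 thymic epithelial markers stayed between 2.52 and 4.56 CPM in all 3 groups, with Foxn1 at 0 in every control, and 0 of 3 tested were called by edgeR or DESeq2 in any group comparison (1 at an unadjusted p under 0.05 in each comparison with transgenic libraries). Of 12 double-positive markers, 8 were called lower and 1 higher in transgenic against control. The part of these cells in the members' levels was not tested.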
